A study of Homo sapiens with 80 samples.

Results

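BDNF, which encodes the secreted neurotrophin brain-derived neurotrophic factor, was represented by 7 of the 25204 probes on the bead arrays. The 7 probes were taken by their gene annotation alone, whether or not they gave a signal. Modelling used probes with a detection p-value under 0.05 on 4 or more arrays, and 6 of the 7 BDNF probes passed. The gene itself was proposed with its responses on these arrays in view, so its levels and differences are given as a description, with standard errors and intervals and without p-values. Each array measured total RNA of U2OS cells, a human osteosarcoma line with little glucocorticoid receptor of its own, into which an allele of the receptor had been introduced. GRalpha is the main form of the receptor, and GRgamma differs from it by an arginine inserted through splicing into the DNA-binding domain. A477T carries a substitution in the dimer interface of the DNA-binding domain, and E773R in the carboxy-terminal activation function AF2. 30iiB is altered in the amino-terminal activation function AF1. Cells of each allele received dexamethasone, a synthetic glucocorticoid, at 100 nM for 2, 4 or 24 h, or the ethanol vehicle for 4 h, which is the 0 h group. There were 4 arrays, stated to be biological replicates, in each of the 20 groups. Only the 4 h dexamethasone groups were matched to the ethanol groups in time. The sources used here do not say whether a line was a clone or a pool of cells, or how much receptor it held. P-values here measure only the spread between these arrays.

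BDNF binds the receptor tyrosine kinase TrkB, the product of NTRK2, and its uncleaved precursor binds the p75 receptor, the product of NGFR. In neurons it supports survival, dendrite growth and synaptic plasticity, and glucocorticoids are known to act on its expression in the brain. The human gene has several alternative first exons, each with its own promoter, that are spliced to a shared exon holding the coding sequence. Transcripts from different promoters therefore differ at the 5′ end and encode the same mature protein. The 7 probes were annotated to 6 different RefSeq transcript records of the gene, and the brightest 2 were annotated to the same record. Probe sequences were not used here, so which first exon, or which end of the shared exon, each probe reads was not analysed.

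RefSeq places BDNF on chr11:27654893-27722030 of GRCh38.p14, on the minus strand, with 17 transcripts. The antisense gene BDNF-AS lies on chr11:27506852-27698171 and shares 43279 bases with it. No probe was annotated to BDNF-AS, and whether a BDNF probe also took up antisense RNA was not tested. RefSeq start-site windows of 300 bases, 250 before and 50 after a start, were available for 5 BDNF starts, numbered from the 5′-most, and the 3 windows that held a searched motif are shown because they hold the letters discussed next. Capitals mark the motif, and each sequence reads 5′ to 3′ along the minus strand.
BDNF start 2, chr11:27720730-27721029: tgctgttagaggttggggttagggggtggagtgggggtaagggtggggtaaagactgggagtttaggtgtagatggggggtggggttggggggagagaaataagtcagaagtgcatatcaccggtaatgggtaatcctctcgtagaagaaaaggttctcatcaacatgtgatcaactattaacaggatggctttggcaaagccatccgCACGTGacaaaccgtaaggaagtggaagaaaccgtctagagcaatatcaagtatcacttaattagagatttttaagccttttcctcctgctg
BDNF start 4, chr11:27701572-27701871: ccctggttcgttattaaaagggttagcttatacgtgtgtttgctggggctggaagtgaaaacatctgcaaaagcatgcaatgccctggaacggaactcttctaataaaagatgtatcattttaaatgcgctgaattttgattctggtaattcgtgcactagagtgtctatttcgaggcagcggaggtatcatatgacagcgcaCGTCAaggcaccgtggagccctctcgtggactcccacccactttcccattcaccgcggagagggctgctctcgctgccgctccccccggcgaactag
BDNF start 5, chr11:27659609-27659908: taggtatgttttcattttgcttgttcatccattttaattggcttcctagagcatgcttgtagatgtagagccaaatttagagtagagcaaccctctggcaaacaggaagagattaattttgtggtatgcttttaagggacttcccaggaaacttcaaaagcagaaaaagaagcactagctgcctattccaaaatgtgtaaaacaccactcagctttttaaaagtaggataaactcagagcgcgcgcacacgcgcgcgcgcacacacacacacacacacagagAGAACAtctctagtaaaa

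Both strands of the 5 windows were searched for 6 motifs. The glucocorticoid response element was searched only in its exact form, AGAACA and TGTTCT with 3 bases between them. This form was in 0 of the 5 BDNF windows and in 1 of the 35116 RefSeq windows of the same length (0.00285%). Forms that differ from it in some letters were not searched. AGAACA by itself, which is 1 arm of that element, was in the window of start 5 only, 33 bases after the start, and in 14.8% of all windows. The E-box CACGTG, the site of USF factors, was 42 bases before start 2 and in 7.26% of all windows. TGACG, the short form of the cyclic AMP response element bound by CREB, was on the opposite strand 47 bases before start 4, where the capitals show its complement, and in 24.6% of all windows. The full element TGACGTCA, which contains TGACG, was in 0 of the 5 windows and in 1.85% of all windows. The AP-1 site TGACTCA was in 0 of the 5 windows and in 4.95% of all windows. These matches describe letters in the windows and no binding was measured.

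The arrays differed in brightness. Median signals ran from 82 to 925.75 with a median of 211.25 over all 80. Each array detected 12233 to 17333 probes. The arrays lay on 10 slides, and a slide held at most 1 array of a group. Of the markers of bone-forming and mesenchymal cells, 5 of 7 measured genes, COL1A1, VIM, RUNX2, ALPL and CDH2, were detected on all 80 arrays and COL1A2 on 16. Of the other cells' markers measured, OLIG2 of 4 glial genes and KRT18 of 4 epithelial ones were detected on all 80 arrays. PECAM1 was detected on 79, EPCAM on 71, VWF on 67, CDH1 on 49, MBP on 43, PTPRC on 18, GFAP on 13 and HBB on 4. CD3E of T cells, CDH5 of endothelium, KRT19 of epithelium and S100B of glia were detected on 0. Of 11 measured genes best known from neurons, 3 were detected on all 80 arrays, namely SNAP25, TUBB3 and NEFL. MAP2 was detected on 79, SYN1 on 78, DCX on 66 and STMN2 on 50. NEFM was detected on 28, SYP on 21, ELAVL4 on 12 and GAP43 on 9.

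The brightest BDNF probe, ILMN_1751276, was detected on 80 of 80 arrays, with signals from 102 to 4364. Its level was much lower after dexamethasone in A477T cells than in A477T cells given ethanol, and it was nearer the ethanol level at 24 h than at 4 h. In GRgamma cells it was lower at 4 h and overlapped the ethanol arrays at 24 h. In GRalpha cells it overlapped the ethanol arrays at all 3 times. The values below are normalised log2 intensities, and in these mixed extracts fewer cells with BDNF RNA and less BDNF RNA per cell cannot be told apart.

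In A477T cells given ethanol, replicates 1 to 4 read 10.17, 9.85, 11.1 and 10.38 for ILMN_1751276. After 2 h of dexamethasone they read 7.49, 8.09, 7.63 and 7.98. After 4 h they read 7.52, 6.27, 6.97 and 7.27. All 12 dexamethasone arrays of this allele lay below all 4 ethanol arrays once the 24 h values of 8.48, 7.68, 8.15 and 8.62 are included. The difference from 0 h was -2.58 at 2 h, -3.37 at 4 h and -2.14 at 24 h, each with a standard error of 0.39. The 95% interval at 4 h ran from -4.15 to -2.59. On a linear scale the means were 5.96-fold, 10.3-fold and 4.42-fold lower. Separation of all 4 treated arrays below all 4 ethanol arrays was found for 5.25% of all kept probes at 2 h, 3.87% at 4 h and 8.37% at 24 h. The 3 responses share their 4 ethanol arrays.

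The same picture stood in the signals before normalisation. Relative to the median signal of its own array, ILMN_1751276 read 3.52, 4.47, 9.06 and 5.54 in A477T cells with ethanol and 1.08, 0.932, 1.03 and 1.14 after 4 h of dexamethasone. The treated arrays thus stood near the middle of all probes and the ethanol arrays well above it. Some of these arrays were dim: their median signals lay between 106 and 374.75 at 0 h and between 97 and 581 at 4 h. With only the arrays whose median signal was 150 or more, which left out 1 ethanol and 2 treated arrays, the difference at 4 h was -3.32. Between arrays of the same slide the difference at 4 h was -2.65 on one slide and -2.88 on another, and at 24 h it was -2.48 and -2.23. The size depended on the processing. It was -2.25 at 4 h without background correction and -2.02 in the authors' series matrix values.

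In GRgamma cells the ethanol arrays read 9.55, 10.09, 9.86 and 9.64 for ILMN_1751276. The 4 h arrays read 8.83, 8.73, 7.74 and 9, and all of them lay below the ethanol arrays. The difference was -1.21 (SE 0.39, 95% interval -1.99 to -0.43), or 2.31-fold lower, and 2.59% of all kept probes were separated downward in this comparison. Relative to the array medians the groups overlapped, with 1.98, 4.25, 2.21 and 4.15 at 0 h against 2.93, 2.03, 1.14 and 2.37 at 4 h. Within a slide the difference was -2.35 on one slide and -1.13 on another. Both arrays of the first comparison were dim. Their median signals were 105.5 for 4 h replicate 3, the lowest 4 h array, and 126.5 for ethanol replicate 2. At 2 h the arrays read 9.48, 7.45, 9.65 and 9.26 and overlapped those at 0 h. The 2 h difference was -0.82, and -0.32 without replicate 2, the lowest array. At 24 h the arrays read 10.16, 9.85, 10.02 and 10.14, within the ethanol range or just above it, and the difference was 0.26 (interval -0.52 to 1.04).

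In GRalpha cells the ethanol arrays read 10.71, 9.83, 9.14 and 10.19. The 2 h arrays read 11.22, 9.65, 9.5 and 9.62, and the 4 h arrays read 10.48, 10.41, 9.81 and 9.52. Both groups overlapped the ethanol arrays throughout, and the differences were 0.03 (interval -0.75 to 0.81) and 0.09 (interval -0.69 to 0.87). The 4 h interval leaves room for a change of up to 0.69 downward or 0.87 upward. At 24 h the arrays were closer together, at 10.83, 10.64, 10.58 and 10.46, and averaged 0.66 above 0 h (interval -0.12 to 1.44), still overlapping.

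In the activation-function alleles no time was separated from 0 h. In 30iiB cells the ethanol arrays read 10.68, 10.38, 10.19 and 9.95. At 2 h they read 10.22, 9.3, 7.7 and 10.19, and the difference of -0.95 (interval -1.73 to -0.17) became -0.39 without replicate 3, the lowest array. The 4 h arrays read 10.51, 10.02, 9.3 and 9.03, a difference of -0.58, and the 24 h arrays read 11.11, 10.68, 10.75 and 10.7, a difference of 0.51. In E773R cells the ethanol arrays read 10.86, 10.82, 9.95 and 10.15. The 2 h arrays, at 10.66, 10.19, 10.87 and 10.71, differed by 0.16. The 4 h arrays read 10.36, 9.03, 9.29 and 9.49, a difference of -0.9 (interval -1.68 to -0.13), with 1 array inside the ethanol range. The lowest of them, replicate 2, was the dimmest array of the series, with a median signal of 82. The 24 h arrays, at 10.59, 9.86, 9.86 and 10.2, differed by -0.32.

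Of the 15 responses of ILMN_1751276, 4 were separated from 0 h, all downward: the 3 of A477T and that of GRgamma at 4 h. Set against the GRalpha response, the A477T response differed by -2.61 at 2 h, -3.46 at 4 h and -2.8 at 24 h (SE 0.55 each). The 95% interval of the 4 h difference ran from -4.56 to -2.35. In the authors' series matrix values these differences were -1.37, -1.86 and -1.88. The GRgamma response differed from that of GRalpha by -1.3 at 4 h (interval -2.4 to -0.19) and by -0.4 at 24 h (interval -1.51 to 0.7). For 30iiB the differences were -0.67 at 4 h and -0.15 at 24 h, and for E773R they were -0.99 and -0.98, with intervals that all included 0. The 30iiB difference at 4 h was -0.09 with the slide as a block.

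At 0 h the alleles could not be ordered. The group means of ILMN_1751276 were 9.78 in GRgamma, 9.96 in GRalpha, 10.3 in 30iiB, 10.37 in A477T and 10.45 in E773R, and every neighbouring pair overlapped. At 2 h A477T was lowest at 7.8, followed by GRgamma at 8.96, 30iiB at 9.35, GRalpha at 10 and E773R at 10.61, and again every neighbouring pair overlapped. At 4 h the order was A477T at 7.01, GRgamma at 8.58, E773R at 9.54, 30iiB at 9.72 and GRalpha at 10.05. The A477T arrays lay below all GRgamma arrays and these below all E773R arrays, while the upper 3 groups overlapped. At 24 h A477T at 8.23 lay below every array of the others. Above it came GRgamma at 10.04, E773R at 10.13, GRalpha at 10.63 and 30iiB at 10.81, with every neighbouring pair overlapping.

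The level was higher at 24 h than at 4 h in all 5 alleles. Without an ethanol group at 24 h, a return toward the ethanol level cannot be told apart from a change with time alone. The difference in ILMN_1751276 was 1.47 in GRgamma, 1.23 in A477T, 1.09 in 30iiB, 0.59 in E773R and 0.57 in GRalpha, with a standard error of 0.39. All 4 arrays at 24 h lay above all 4 at 4 h in GRgamma, A477T and 30iiB. In A477T it was 0.63 without background correction and 0.57 in the authors' series matrix values. The share of all kept probes separated upward was 8.84% in GRgamma, 5% in A477T and 8.15% in 30iiB.

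The second probe, ILMN_1761910, is annotated to the same transcript record and was detected on 77 of 80 arrays with a mean signal of 294 against 1110 for the brightest. In A477T cells it ran the same way with smaller differences, and it read 7.08, 7.47, 7.58 and 7.96 with ethanol and 5.4, 4.6, 6.83 and 6.53 after 4 h. All 4 h arrays lay below the ethanol arrays, the difference was -1.68 (SE 0.31), or 3.21-fold lower, and only 2 of the 4 were detected. At 24 h the arrays read 6.35, 6.43, 6.94 and 7.06, also separated, with a difference of -0.83. At 2 h the groups overlapped and the difference was -0.82. These differences shrank with other processing. At 2, 4 and 24 h they were -0.35, -0.71 and -0.37 without background correction and -0.18, -0.58 and -0.28 in the authors' series matrix values.

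In the other alleles ILMN_1761910 averaged higher at 24 h than at 0 h. In 30iiB cells the ethanol arrays read 6.98, 7.62, 7.81 and 7.1 and the 24 h arrays 8.6, 8.32, 7.86 and 8.24, separated upward with a difference of 0.88 (SE 0.31). In that comparison 8.82% of all kept probes were separated upward. In GRalpha cells the ethanol arrays read 7.13, 7.59, 7.02 and 6.79 and the 24 h arrays 8.25, 8.59, 7.7 and 7.5, which averaged 0.88 higher and overlapped, a difference of 0.42 in the authors' series matrix values. In GRgamma the 24 h difference was 0.65 (interval 0.04 to 1.27) and in E773R 0.28 (interval -0.33 to 0.89), both overlapping. The brightest probe differed by 0.26 and -0.32 there. Between 4 h and 24 h this probe was separated upward in GRgamma by 1.01, in 30iiB by 1.18 and in E773R by 0.65, the last among 4.48% of all kept probes.

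The probe ILMN_1712712 was near the limit of detection, with 20 of 80 arrays detected. In A477T cells it read 5.97, 5.75, 6.57 and 5.45 with ethanol, where 1 of the 4 arrays detected it. It read 5.1, 5.08, 5.01 and 5.02 at 2 h, with no array detected, and lay between 4.83 and 5.1 at 4 and 24 h, also with none detected. All 3 treated groups were separated below the ethanol group. Since they had no detected array and the ethanol group was itself mostly undetected, no fold is given. In GRalpha cells the probe was detected on 0 of 4 arrays at 4 h, at 5.51, 5.54, 5.35 and 5.29, and on 4 of 4 at 24 h, at 6.74, 7.08, 5.94 and 5.85. The 24 h level was thus at least 1.43-fold higher than that at 4 h, where 10.2% of all kept probes were separated upward. In GRgamma cells it was separated downward at 4 h, with 0 of 4 arrays detected at either time.

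The other kept probes were not separated from 0 h in any response. ILMN_1809543, detected on 74 arrays, gave 15 responses from -0.69 to 0.82. The highest were in GRgamma at 24 h, at 0.82 (interval 0.18 to 1.45), and in E773R at 24 h, at 0.73 (interval 0.09 to 1.36), and the first was 0.36 without background correction. Its lowest response was in A477T at 4 h, where the arrays read 6.05, 5.95, 6.72 and 6.68 against 6.56, 7.28, 6.92 and 7.4 with ethanol and overlapped, a difference of -0.69 (interval -1.32 to -0.05) that was -0.23 in the authors' series matrix values. ILMN_1706644, detected on 66 arrays, was separated in 0 of 15 responses, which ran from -0.7 to 0.35. In A477T it read 6.65, 6.22, 6.19 and 6.29 at 4 h against 6.8, 6.47, 5.16 and 7.24 with ethanol. ILMN_1793988, detected on 14 arrays, was separated in 0 of 15, between -0.43 and 0.4. ILMN_1719820 was detected on 0 of 80 arrays, had signals up to 365.5 and gave no usable response.

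Set side by side, the probes gave unequal measured differences in A477T cells, but they also started at unequal levels above the limit of detection. At 4 h the response of ILMN_1751276 minus that of ILMN_1761910 was -1.68 (SE 0.44), minus that of ILMN_1809543 -2.68 (SE 0.52) and minus that of ILMN_1706644 -3.29 (SE 0.53). In the authors' series matrix values the last 2 were -1.8 and -1.93, and without background correction the last was -2.2. ILMN_1793988 and ILMN_1712712 were detected on 1 of the 4 ethanol arrays each and on 1 and 0 of the 4 treated ones, so a decrease in them could hardly be measured and they are not set against the brightest probe. Across the 80 arrays the lowest detected signal stood between 5.481 and 7.1 on the log2 scale, close to the levels of the dimmer probes. The A477T ethanol mean was 10.37 for ILMN_1751276, against 7.53 for ILMN_1761910, 7.04 for ILMN_1809543 and 6.42 for ILMN_1706644. The dimmer probes thus started closer to that limit than the brightest. ILMN_1706644 was detected on 3 of 4 ethanol arrays and on 4 of 4 at 4 h, where its mean was 6.34. Whether the limit made the measured decreases of the dimmer probes smaller was not tested. Whether the transcripts themselves responded unequally was not tested. At 4 h all 6 kept probes averaged lower than at 0 h in A477T, but ILMN_1706644 by only -0.08. ILMN_1793988 stood at 0.05 instead of -0.43 when arrays were scaled to the same median. The median difference of all kept probes was -0.02. Of the 6 probes 3 were separated, among them ILMN_1712712 with 0 of 4 treated arrays detected, and 3.87% of all kept probes were separated downward. In GRalpha at 24 h the brightest probe did not differ in response from ILMN_1761910 by more than the spread, with a difference of -0.22 (interval -1.11 to 0.67).

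Over the 20 group means, which share a normalisation and their slides, ILMN_1751276 correlated with ILMN_1761910 at r = 0.9, with ILMN_1712712 at r = 0.81 and with ILMN_1809543 at r = 0.63. Without the 4 A477T groups these were 0.79, 0.78 and 0.24 over 16 means. Its correlation with ILMN_1706644 was -0.12 and with ILMN_1793988 -0.01. The first 3 probes thus ran with the brightest over alleles and times, the third mainly through A477T, and the last 2 did not. Within groups, over deviations of the 80 arrays from their group means, the correlation with ILMN_1761910 was 0.23 and with ILMN_1712712 0.52.

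The genes around BDNF were followed with a list of 73 neurotrophin genes, grouped by role, of which 58 had a probe and 55 were kept. For these the response was tested with limma, two-sided, with Benjamini-Hochberg adjustment over all 15392 kept probes, and a gene was called at an adjusted p under 0.05. In GRalpha cells 1 gene rose and 0 fell at 2 h, 1 rose and 3 fell at 4 h, and 5 rose and 9 fell at 24 h. Over all kept probes 1.18% rose at 2 h and 0.435% fell, 2.59% rose and 1.76% fell at 4 h, and 7.89% rose and 8.48% fell at 24 h. In A477T cells 1 rose and 3 fell at 2 h, 1 rose and 3 fell at 4 h, and 4 rose and 9 fell at 24 h, against 0.819% and 0.76%, 1.72% and 1.31%, and 4.25% and 4.24% of all kept probes. The list's median response was -0.14 in GRalpha at 24 h and -0.08 in A477T, and that of all kept probes was -0.02 and -0.03. At 24 h in the other alleles 2 rose and 8 fell in GRgamma (9.17% and 7.02% of all), 5 rose and 9 fell in 30iiB (7.6% and 7.67%), and 0 rose and 3 fell in E773R (2.89% and 2.32%). At 2 h 2 rose and 0 fell in GRgamma (1.2% and 0.305%), 1 rose and 4 fell in 30iiB (1.09% and 1.01%), and 1 rose and 0 fell in E773R (0.292% and 0.0195%). At 4 h 2 rose and 1 fell in GRgamma (2.64% and 1.2%), 1 rose and 3 fell in 30iiB (2.16% and 1.75%), and 1 rose and 0 fell in E773R (0.721% and 0.331%). Between 4 h and 24 h the list genes called were 2 higher and 4 lower in GRalpha, 3 and 4 in GRgamma, 1 and 4 in A477T, 2 and 2 in 30iiB, and 2 and 3 in E773R. The shares of all kept probes called in either direction were 10%, 8.84%, 4.65%, 11.4% and 3.74% in that order.

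Among the ligands only NTF4, the other neurotrophin that acts through TrkB, had a kept probe. It rose in A477T cells at 24 h, from 5.11, 5.51, 4.83 and 5.63 with ethanol to 6.81, 7.63, 7.28 and 5.65, and 3 of the 4 treated arrays but none of the ethanol arrays detected it. The level was at least 1.82-fold higher (log2 difference 1.57, SE 0.31, limma adjusted p = 0.00011). Thus BDNF and NTF4 stood in opposite directions in this group. In GRalpha cells NTF4 differed by 0.33 at 24 h and was not called.

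Of the receptors, NTRK2, which encodes TrkB, was detected on 19 of 80 arrays by its kept probe, 6 of them among the 20 ethanol arrays. At 0 h it was higher in A477T than in GRalpha cells by 1.17 (SE 0.27, limma adjusted p = 0.0057), where 2.17% of all kept probes were called. Only 1 of the 4 GRalpha ethanol arrays detected it, at a group mean of 5.37, so the size of this difference is uncertain. The other NTRK2 probes, ILMN_1702822 and ILMN_1714067, were detected on 2 arrays each and were not kept. In A477T cells the kept probe fell by 0.96 at 24 h (SE 0.27, limma adjusted p = 0.013), from 5.44, 7.02, 6.9 and 6.82 to 5.14, 5.85, 5.64 and 5.7. Detection went from 3 of 4 arrays to 1 of 4, the lowest ethanol array lay among the treated ones, and the call was lost under 6 of 17 alternatives. In the other alleles the response of NTRK2 at 24 h lay between -0.21 and 0.03 and was not called.

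NTRK3, which encodes TrkC, the receptor of neurotrophin-3, behaved differently between alleles at 24 h. In GRalpha cells its brighter probe, ILMN_1734893, went from 6.81, 6.55, 7.19 and 7.59 with ethanol to 8.59, 9.26, 9.66 and 8.99. That is a rise of 2.09 (SE 0.33, limma adjusted p = 8.5e-07), or 4.27-fold, with no overlap. In 30iiB cells the probe went from 5.67, 6.29, 6.85 and 6.02 to 7.42, 8.9, 8 and 8.44, a rise of 1.98 (SE 0.33, limma adjusted p = 3.1e-06). In A477T cells it read 5.39, 5.53, 5.75 and 4.98 at 24 h, detected on none of the 4 arrays, and its difference of -0.71 was not called (limma adjusted p = 0.24).

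The difference of the 24 h response of NTRK3 from that of GRalpha was itself called in 3 alleles. These comparisons called 4.53% of all kept probes in A477T, 1.77% in GRgamma and 1.53% in E773R. The difference was -2.81 in A477T (SE 0.47, limma adjusted p = 9.9e-06), -2.25 in GRgamma (limma adjusted p = 0.0012) and -2.06 in E773R (limma adjusted p = 0.005), each held under all 25 alternatives. In 30iiB it was -0.12 (SE 0.47, limma adjusted p = 1). The other kept probe, ILMN_1687967, rose in GRalpha by 1.73 and in 30iiB by 1.66 at 24 h, and in A477T it was detected on 0 of 4 arrays both at 0 h and at 24 h, so it gives no response there. Already at 0 h ILMN_1687967 was lower in A477T than in GRalpha (means 5.62 and 6.99, limma adjusted p = 0.0031), and ILMN_1734893 differed by -0.91 and was not called (limma adjusted p = 0.18). The A477T level of ILMN_1734893 at 24 h was not detected either, so the size of the -2.81 is uncertain by how far that level lay below detection. The probes disagreed in E773R at 24 h, at 0.03 for ILMN_1734893 and -0.9 for ILMN_1687967, neither called. At 2 and 4 h the differences from GRalpha were not called for any allele.

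SORCS1, a sorting receptor of the family that binds pro-neurotrophins and Trk receptors, rose at 24 h in 4 alleles. In A477T it went from 6.83, 6.57, 6.02 and 6.67 to 8.39, 8.11, 8.24 and 8.19, a rise of 1.71 (SE 0.32, limma adjusted p = 4.1e-05). The rise was 1.62 in GRgamma, 1.39 in 30iiB and 0.99 in GRalpha, the last lost under 5 of 17 alternatives, and E773R differed by 0.77 and was not called. Its other kept probe, ILMN_1665492, rose in GRgamma, A477T and 30iiB and was not called in GRalpha, at 0.61. NGFR, the p75 receptor, was called in no allele at 24 h, with responses from -0.67 to 0.15. SORCS2 and SORCS3 were not called either, between -0.52 and 0.51 and between -0.29 and 0.12.

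Of the 7 kept genes that cleave or sort the BDNF precursor, only PLAT, which encodes tissue plasminogen activator, was called in GRalpha at 24 h, where 7.89% of all kept probes rose and 8.48% fell. It fell by 1.17 (SE 0.31, limma adjusted p = 0.0039). At the earlier times PLAT rose in GRgamma cells, by 1.72 at 2 h and by 1.61 at 4 h (limma adjusted p = 0.00015 and 2e-04). In GRalpha cells at 2 h PLAT differed by 0.44 and was not called. The difference between the GRgamma and GRalpha responses of PLAT was not called at 2, 4 or 24 h. Of the 16 kept adaptors and signalling genes, 2 rose and 1 fell in GRalpha at 24 h, or 18.8%, which is near the background share. The rises were in PLCG1, the phospholipase C that Trk receptors activate, by 1 and in BEX3, a p75-interacting protein, by 1.19, and RIPK2, a kinase recruited to p75, fell by 0.61 (limma adjusted p = 0.023, 0.0039 and 0.04). The calls of PLCG1, RIPK2 and BEX3 were lost under 6, 7 and 2 of 17 alternatives. The other kept PLCG1 probe, ILMN_2382906, differed by 0.98 and was not called (limma adjusted p = 0.46), and both other BEX3 probes were called, at 1.42 and 1.16.

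Several transcription factors known to act on BDNF promoters fell. BHLHE40, a repressor that binds E-boxes, went in GRalpha from 14.01, 14.96, 12.88 and 13.34 to 12.48, 12.79, 11.75 and 11.52 at 4 h, a fall of 1.66 (SE 0.3, limma adjusted p = 3.9e-05). In A477T cells it went from 13.74, 13.51, 14.93 and 13.92 to 12.14, 11.99, 12.1 and 12.58, a fall of 1.82 (limma adjusted p = 8.7e-06). BHLHE40 fell at all 3 times in A477T, by 1.87 at 2 h and 2 at 24 h, and in 30iiB, by 1.82, 1.88 and 1.44 at 2, 4 and 24 h, and it was called in E773R at no time, with responses from -0.82 to 0.26. NFKB1, a subunit of NF-kappaB, fell by 0.87 in GRalpha at 4 h and by 1.53 at 24 h, and by 1.57 in A477T at 24 h. In E773R it fell by 1.42 at 24 h (limma adjusted p = 5.4e-07). The GRalpha 4 h calls of BHLHE40 and NFKB1 were lost under 1 and 2 of 17 alternatives. Of the 14 kept factors, 1 rose and 4 fell at 24 h both in GRalpha and in A477T, against 7.89% and 8.48% of all kept probes in GRalpha and 4.25% and 4.24% in A477T. ARNT2, the partner of NPAS4, was the gene that rose in each, by 0.84 and 1.14, and NPAS4, an activity-induced factor that binds BDNF promoters in neurons, was at least 1.83-fold and 1.74-fold lower, with 0 of 4 arrays detected at 24 h in each. The NPAS4 call was lost under 2 of 17 alternatives in GRalpha and 10 of 17 in A477T, with adjusted p up to 0.084 and 0.24, and that of ARNT2 under 2 of 17 in GRalpha. In E773R cells NPAS4 was also called lower at 24 h, by 1.64 (limma adjusted p = 0.037).

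MEF2D, a factor that binds the activity-dependent promoters, fell in A477T and 30iiB cells, and at 24 h also in E773R cells, by 0.96 (limma adjusted p = 0.027). In A477T it read 10, 9.54, 10.2 and 9.83 with ethanol and 8.95, 7.91, 8.5 and 8.09 at 4 h, a fall of 1.53 (SE 0.28, limma adjusted p = 0.00011) with no overlap. It had fallen by 1.78 at 2 h. In 30iiB it went from 10.64, 10.41, 10.16 and 10.07 to 9.46, 9.28, 9.11 and 8.68 at 4 h, a fall of 1.19 (limma adjusted p = 0.0036) with no overlap, and fell by 1.68 at 2 h and by 1.11 at 24 h. In GRalpha the 4 h arrays, at 9.5, 9.83, 9.09 and 9.27, lay within the ethanol range of 9.9, 10.29, 8.53 and 9.32. At 24 h MEF2D fell by 0.8 in GRalpha (limma adjusted p = 0.041), a call lost under 9 of 17 alternatives. In the comparison of the 4 h responses of A477T and GRalpha, which called 1.29% of all kept probes, the difference was -1.44 (SE 0.4, limma adjusted p = 0.049), but it was not called under 17 of 25 alternatives, where adjusted p reached 0.28. REST, a repressor of neuronal genes, fell by 1.35 in A477T at 4 h (SE 0.34, limma adjusted p = 0.0088), a call lost under 4 of 18 alternatives.

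Of the genes that neurotrophin signalling induces, ARC, an activity-regulated cytoskeletal gene, rose early and fell late. In GRalpha it went from 10.39, 10.6, 10.36 and 9.11 with ethanol to 12.39, 11.93, 12.9 and 13.37 at 2 h, a rise of 2.53 (SE 0.35, limma adjusted p = 1.9e-07). It was 1.38 above 0 h at 4 h and, at 8.93, 8.54, 8.47 and 8.25, lay 1.57 below 0 h at 24 h, both called. Without ethanol replicate 4 the 4 h rise was 1.04 and not called (limma adjusted p = 0.12). ARC was called upward at 2 h in all 5 alleles. The rise was 2.79 in GRgamma, 2.41 in 30iiB and 1.68 both in A477T and in E773R. At 24 h it had fallen by 1.41 in A477T, 1.18 in GRgamma and 1.1 in 30iiB, and E773R, at -0.68, was not called. KLF10, an early response gene, fell in GRalpha by 1.75 at 4 h (limma adjusted p = 0.035), a call lost under 7 of 17 alternatives, and by 2.86 at 24 h. Its other kept probe, ILMN_1667594, was called at neither time, at -0.86 (limma adjusted p = 0.36) and -1.11 (limma adjusted p = 0.054). HOMER1, a scaffold of glutamate receptors, fell by 1.93 in GRalpha at 24 h, a call lost under 1 of 17 alternatives.

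VGF, which encodes a secreted peptide precursor and is a classic target of neurotrophins, fell in A477T at 24 h from 12.77, 12.49, 12.32 and 12.71 to 11.32, 11.44, 11.47 and 11.3. The fall was 1.19 (SE 0.21, limma adjusted p = 1.8e-05) with no overlap. In GRalpha it read 13.84, 12.92, 12.49 and 12.78 with ethanol and 13.34, 13.12, 12.71 and 12.82 at 24 h, which overlapped. The difference between the 24 h responses was -1.18 (SE 0.3, limma adjusted p = 0.0066), lost under 2 of 25 alternatives, with adjusted p up to 0.33. EGR1, an immediate early transcription factor, and NR4A1, an early orphan receptor, fell in A477T at 24 h by 1.8 and 1.46, but the call of EGR1 was lost under 1 of 17 alternatives and that of NR4A1 under 11 of 17. The other kept NR4A1 probe, ILMN_1661178, differed by 0.01 (limma adjusted p = 1).

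The genes whose group means ran most like ILMN_1751276 were picked by Pearson r over the 20 groups among 6950 genes whose group means ranged over at least 1 on the log2 scale. The highest was ZCCHC14, a zinc-finger protein, at r = 0.841, followed by ING5, a histone-mark reader, at 0.808, PRKAB2, an AMP-activated kinase subunit, at 0.801, PRICKLE1, a planar polarity gene, at 0.787, KDM5B, a histone demethylase, at 0.779, RNF19A, a ubiquitin ligase, at 0.777, DYRK2, a kinase, at 0.774, and ZNF362 at 0.773. Their A477T differences at 4 h lay between -1.14 for ING5 and -0.34 for ZNF362, all smaller than that of BDNF. Without the A477T groups r was 0.9 for PRICKLE1 and 0.39 for ING5. The lowest r belonged to DDX24, an RNA helicase, at -0.915, FAM149A at -0.914, MICALL2, a regulator of endocytic traffic, at -0.879 and SIPA1L2, a Rap GTPase-activating protein, at -0.866. SIPA1L2 was higher in A477T by 5.43 at 2 h and 5.15 at 4 h, against 1.07 in GRalpha at 4 h. Its 0 h means, 6.07 in A477T and 5.45 in GRalpha, lay near the lowest detected signals, so these sizes are uncertain.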

How the data were processed

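BDNF and the neurotrophin list were chosen with earlier results of these data known. The deposited table held, per the file headers, a raw probe intensity and a detection p-value for each array, with no background subtraction or scaling. The authors' series matrix values ran as log2 of the same signals (lowest correlation 0.938 over 21241 probes), and the sources used here do not state how they were normalised. Of 25204 probes, 19291 had 1 gene symbol and 5913 had none. With limma 3.58.1 in R 4.3.3, intensities were background corrected from the detection p-values, given an offset of 16, quantile normalised and taken to log2. The filter left 15392 probes. A model of 20 group means was fitted to all 80 arrays (lmFit and eBayes, 60 residual degrees of freedom), with p-values adjusted by Benjamini-Hochberg over the kept probes. The fit was tested on simulated data.

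A gene was counted by its brightest kept probe, and 14 listed genes had several. A group with no detected array gave only a bound on a fold, against the higher of the array's lowest detected signal and the probe's own. No fold is given where the group compared with it was itself mostly undetected. Named were all BDNF probes, the ligands and receptors, list members called in GRalpha at 4 h, up to 5 further ones per role called in GRalpha at 24 h, and the 8 most and 4 least alike genes. Those named for A477T, GRgamma or 30iiB calls alone, among them REST, EGR1, VGF and NR4A1, were chosen after their values were seen. No arrays were identical, and the highest correlation between arrays was 0.9907. Alternatives were other background and scaling settings, filters, slide and replicate blocks, a fit to the compared groups alone, the series matrix values and leaving out each array. The subset of brighter arrays was added after seeing the data. The number of arrays limits the precision.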

Additional observations from a re-analysis of the deposited data

Results flagged for a closer look

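In 12 of the 140 groups of 4 arrays formed by the 7 BDNF probes, 1 array stood apart from the other 3 by Dixon's criterion, which chance alone meets in about 1 of 20 groups. For the brightest probe, ILMN_1751276, GRalpha replicate 1 at 2 h read 11.22 against 9.5 to 9.65 in the others, and 30iiB replicate 1 at 24 h read 11.11 against 10.68 to 10.75. For ILMN_1761910, E773R replicate 4 at 0 h read 7.74 against 7.26 to 7.33, and E773R replicate 1 at 24 h read 8.58 against 7.32 to 7.48. For ILMN_1809543, 30iiB replicate 2 at 2 h was low at 7.07 against 7.63 to 7.71, and E773R replicate 3 at 0 h was low at 5.83 against 6.95 to 7.18. For ILMN_1706644, 30iiB replicate 3 at 2 h read 5.05 against 6.36 to 6.55. For ILMN_1793988, GRgamma replicate 2 at 2 h read 5.78 against 5.34 to 5.39, and A477T replicate 3 at 24 h read 5.96 against 5.42 to 5.49. For the undetected ILMN_1719820, GRgamma replicate 4 at 2 h read 5.22, A477T replicate 4 at 24 h read 5.54 and E773R replicate 3 at 0 h read 5.53, each above the other arrays of its group.

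The response differed from that of GRalpha by limma's test of the difference itself for 3 list genes. NTRK3 at 24 h differed by -2.81 in A477T, by -2.25 in GRgamma and by -2.06 in E773R on the log2 scale. VGF differed by -1.18 in A477T at 24 h, and MEF2D by -1.44 in A477T at 4 h. The MEF2D call was lost under 17 of 25 alternatives and the VGF call under 2 of 25. The limma adjusted p-values of all 3 genes stand with the results above.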

How the results depend on the processing

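No fitted difference of ILMN_1751276 changed by more than 1 SD when a single array was left out (384 of 384), nor under 308 of 325 other settings. Those that moved were, without background correction, A477T at 2 h (-1.87) and 4 h (-2.25), its difference from GRalpha at 2 h (-1.91), 4 h (-2.31) and 24 h (-2.17), and A477T between 4 and 24 h (0.63). With the series matrix values A477T gave -1.68, -2.02 and -1.45 at 2, 4 and 24 h, its differences from GRalpha -1.37, -1.86 and -1.88, A477T between 4 and 24 h 0.57, and the 30iiB differences from GRalpha at 2 and 4 h -0.15 and -0.11. With the slide as a block these last were -0.25 and -0.09. The cause of these shifts was not tested.

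Counts of called list genes moved too. Scaling arrays to the same median gave 9 in GRalpha and 1 in E773R at 24 h, the slide block 4 in GRalpha at 2 h, and fits to the compared groups 1 in GRalpha at 4 h and 1 in E773R at 24 h. The series matrix values gave 6, 7 and 24 in GRalpha at 2, 4 and 24 h and 25, 21, 22 and 11 at 24 h in GRgamma, A477T, 30iiB and E773R. Leaving out 1 array gave 1 to 3 in GRalpha at 2 h and, at 24 h, 8 to 11 in A477T, 1 to 3 in E773R and 6 to 11 in GRgamma. The lowest came without A477T ethanol replicate 3, GRgamma ethanol replicate 1 and E773R ethanol replicate 3 or 24 h replicate 2 or 3, and the highest GRalpha 2 h counts, 3 and 2, without ethanol replicate 2 or 3.

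Samples were not treated as pairs by replicate number in the main model, and the correlations below do not settle whether some were paired. Of 60 pairs with the same number, 27 deviated together at a correlation over 0.1 (median 0.08, range -0.48 to 0.69), and 21 of 60 correlated best with their own number. With the replicate block 2 list genes were called in GRalpha at 2 h in place of 1. The block is balanced over the groups, so it cannot move a difference of group means, -3.37 for the brightest probe in A477T at 4 h. Dim probes, with few detected arrays, can show little decrease.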

Other observations

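At 0 h, before any dexamethasone, 2 list genes differed between A477T and GRalpha cells by their brightest probes, where 2.17% of all kept probes were called, and 1 differed between 30iiB and GRalpha cells, where 1.29% were. NTRK2 was the higher of the A477T pair, as given above. CPE, the carboxypeptidase that also acts as a sorting receptor for the BDNF precursor, was 1.67 lower on the log2 scale in A477T (means 9.04 and 10.71, limma adjusted p = 0.047). MMP9, a protease that can cleave the precursor, was 1.73 higher in 30iiB (means 10.99 and 9.25, limma adjusted p = 0.0077). In 30iiB cells MMP9 fell by 1.66 and MMP3, a related protease, by 1.58 at 24 h of dexamethasone (limma adjusted p = 0.0014 and 0.00075). GAB1, a docking adaptor, and SOS1, a Ras exchange factor, rose there by 1.41 and 1.64 (limma adjusted p = 0.045 and 0.036). The other kept GAB1 probe, ILMN_2405534, differed by 0.42 (limma adjusted p = 0.51).

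Between 4 h and 24 h ARC differed by -3.38 in GRgamma, -3.26 in 30iiB, -3.14 in A477T, -2.95 in GRalpha and -2.18 in E773R, and was called in each by limma. PLAT fell over the same interval in 4 alleles, with differences of -1.4 in GRalpha, -1.36 in GRgamma, -1.34 in 30iiB and -1.28 in A477T.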
